A study of Mus musculus with 16 samples.

Results

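The mitochondrial ribosomal protein genes were taken as the protein-coding entries of the all-gene count table whose symbol is Mrpl or Mrps followed by a number. This gave 78 of the 40481 genes listed, 48 named for the large subunit and 30 for the small subunit. They were measured in the brains of 16 C57BL mice purchased at 18 months of age, male C57BL/6J by the study's methods. A total of 8 mice received adropin(34-76), a secreted peptide, at 90 nmol/kg/d by a daily intraperitoneal injection, and 8 received the saline diluent only. Treatment lasted about a month and included a period of behavioral testing, and both groups were fasted before collection of the brain. Each mouse is named after the 2 numbers of its label. The comparison asked whether adropin treatment was accompanied by a different level of these transcripts, and whether the 2 subunits moved alike.

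Mitochondria hold their own ribosome, which translates the few messages of the mitochondrial genome, all of them for subunits of the respiratory chain and ATP synthase. Its ribosomal RNAs come from the mitochondrial genome, whereas its proteins are encoded in the nucleus, made in the cytosol and imported. The small subunit binds and decodes the message, and the large subunit joins the amino acids and releases the chain at the inner membrane. Some of the proteins descend from the bacterial ribosome and others were gained by mitochondria. Neurons depend on oxidative phosphorylation, and inherited defects of mitoribosomal proteins in humans often affect the brain.

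Of the 78 entries, 76 were tested, 47 of the large and 29 of the small subunit, among 14949 genes that had more than 1 CPM (counts scaled to a common library total) in at least 7 mice. The other 2 had no count in any mouse. One was Mrpl53, on chromosome 6 from 83109040 to 83109939 (GRCm38), which shares 695 of its 790 annotated exon bases with Gm42688 on the same strand, where reads cannot be assigned to a single gene. The other was a further identifier for Mrps23, whose first identifier was tested. The 76 genes lay on 17 chromosomes, and chromosome 11 held the most with 11 entries. Counts of a tested member in a mouse ran from 184 to 4251.

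Library totals ranged from 35026503 to 70314050. Neuronal markers such as Snap25 had medians from 272 to 2750 CPM over the mice and oligodendrocyte markers from 39.4 to 2678 CPM, whereas the markers of liver, skeletal muscle and heart had medians from 0.386 to 15.2 CPM. Choroid plexus markers differed on average between the groups, while the group medians of their summed level were close. All 5 (Ttr, Kl, Clic6, Sostdc1 and Prlr) were lower with adropin at an unadjusted p below 0.05, against 2.13% of all genes, with log2 fold changes from -4.07 to -1.11 and adjusted p of 0.874 (edgeR). Their summed level was from 11.1 to 73.4 CPM (median 18.5) in adropin-treated mice and from 12.6 to 2460 CPM (median 20.9) in saline-treated mice, highest in saline-treated mice 8_3 and 5_4 (328 CPM). Without 8_3, and without both mice, 2 of the 5 passed, Kl and Prlr. Without both mice Ttr turned to 1.12 (unadjusted p = 0.0703), and Clic6 and Sostdc1 were at -0.28 and -0.13. Among the markers of other brain cell types, the microglial gene Cx3cr1 passed (0.18, unadjusted p = 0.0225), higher with adropin as were 1.86% of all genes. Without mice 5_4 and 8_3 it was at 0.16 with an unadjusted p of 0.0523. The noncoding gene Gm42418, which lies at a ribosomal RNA repeat, took from 0.840% to 4.98% of counts. The labels give no brain region, and in whole tissue fewer cells of a type and less RNA per cell cannot be told apart.

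Promoter windows of 300 bases, from 250 before to 50 after the start of a transcript, were found in the RefSeq table of GRCm38.p6 for 67 of the 76 tested members. They were searched on both strands for short forms of the motifs of 3 factors known to act at nuclear genes for mitochondria. GCGCANGC, an NRF1-like motif, was present in 21 of the 67 members (31.3%), in 21.8% of 10602 other tested protein-coding genes and in 9.95% of all 32851 windows. CCGGAAG, a motif of the ETS type bound by GABP, was present in 24 members (35.8%), against 18.3% of the other tested genes and 8.86% of all windows. AAGATGGC, a YY1-like motif, was present in 12 members (17.9%), against 4.85% and 2.75%. At least 1 of the 3 was found in 44 of the 67 members, and the matching share of other genes was not computed. Members with the ETS-like motif had a median log2 fold change of -0.05 and those without it -0.07, and the corresponding values were -0.07 and -0.06 for the NRF1-like and -0.05 and -0.07 for the YY1-like motif. These matches are descriptions of the letters in the windows.

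The windows of 2 members are shown with the motif letters in capitals: Mrps12, which encodes the decoding-site protein and had one of the highest levels per exon length, and Mrps18c, whose level varied most between mice. They lie at chr7:28741772-28742071 on the minus strand and chr5:100798509-100798808 on the plus strand. The RefSeq start lies 1 base from the GENCODE start of the gene for Mrps12 and 132 bases from it for Mrps18c. The capitals mark a YY1-like and then an ETS-like motif in Mrps12 and an ETS-like motif in Mrps18c. Sars2, on the opposite strand, starts at 28741992, inside the window of Mrps12. The YY1-like match lies past that start, on the side of Sars2.
Mrps12: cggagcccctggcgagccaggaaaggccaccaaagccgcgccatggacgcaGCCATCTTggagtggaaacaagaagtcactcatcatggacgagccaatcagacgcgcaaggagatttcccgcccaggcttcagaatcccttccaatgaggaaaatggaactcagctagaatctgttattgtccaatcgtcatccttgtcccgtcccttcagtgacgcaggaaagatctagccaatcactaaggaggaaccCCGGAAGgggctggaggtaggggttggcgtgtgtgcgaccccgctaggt
Mrps18c: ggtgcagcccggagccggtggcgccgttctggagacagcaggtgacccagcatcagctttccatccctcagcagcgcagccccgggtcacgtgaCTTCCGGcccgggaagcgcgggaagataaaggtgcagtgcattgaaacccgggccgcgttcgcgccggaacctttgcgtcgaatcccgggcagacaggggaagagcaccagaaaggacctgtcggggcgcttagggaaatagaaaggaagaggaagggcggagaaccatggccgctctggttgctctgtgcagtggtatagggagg

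Levels of the members were moderate and spanned about an order of magnitude. The mean CPM over mice ran from 5.87 for Mrps34 to 60.6 for Mrpl4, with a median of 27.7 over the 76 members. To compare genes, TMM-normalized CPM was divided by the kilobases of annotated exon. On this per-length scale the highest large subunit members were Mrpl41 at 48.6, Mrpl34 at 39.6 and Mrpl54 at 34.3 CPM per kb, and the highest small subunit members were Mrps21 at 47.1, Mrps12 at 44.4 and Mrps7 at 19.4 CPM per kb. The lowest were Mrpl32 at 2.37, Mrpl47 at 2.5 and Mrpl1 at 2.84 CPM per kb in the large subunit, and Mrps35 at 2.04, Mrps30 at 2.05 and Mrps10 at 2.73 CPM per kb in the small subunit. Annotated exon length includes every transcript of a gene, so a gene with long, little-used exons has a low value on this scale. The level of Mrps34 is uncertain, since 63.4% of its exon bases overlap Mapk8ip3 on the opposite strand and strand use in counting is not stated. In all, 27 tested members share exon bases with a gene on the opposite strand, 13 of them by at least 10%.

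No member passed the test between adropin-treated and saline-treated mice. At an unadjusted p below 0.05, 0 of 76 passed in edgeR's quasi-likelihood test, against 3.99% of all 14949 genes tested, and 0 were lower at that p, against 2.13% of all genes. Likewise 0 passed a fold change of 1.5 together with that p, against 0.421% of all genes, and 0 passed an adjusted p of 0.05, as did 0% of all genes. The counts at an unadjusted p were also 0 with limma-voom, with DESeq2 and with limma-trend on the deposited CPM. The smallest unadjusted p was 0.092 for Mrpl24, and the smallest adjusted p was 0.874. In two-sided exact permutation tests over the 12870 divisions of the mice, the smallest p for a member was 0.0968. The ranges of the groups failed to overlap for 0 of 76 members and for 0.00669% of all genes.

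Fold changes were small and mostly below 0. Log2 fold changes ran from -0.18 for Mrpl52 to 0.04 for Mrpl17, that is from 0.883-fold to 1.03-fold, with standard errors from 0.039 to 0.153. Their median was -0.07, whereas the median over all 14949 genes was -0.0019. Of the 76 members, 69 had a value below 0 (90.8%), against 50.8% of all genes. This count rested on saline-treated mice 5_4 and 8_3, which had the highest member levels. It was 54 of 76 without 5_4 and 25 of 76 without both, and the median was then -0.02 and 0.02. Both mice were picked after their levels were seen, and leaving out high saline-treated mice raises the difference by construction. They were also the mice with the highest choroid plexus markers, whose part in the result was not tested. With the first label number as a replicate block the median was -0.14 and 71 of 76 were below 0. That fit compares the groups only among mice 2_1, 2_3, 2_4, 5_3, 5_4, 5_5, 7_1 and 7_4. All other first numbers hold mice of a single group.

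**Figure D1:**
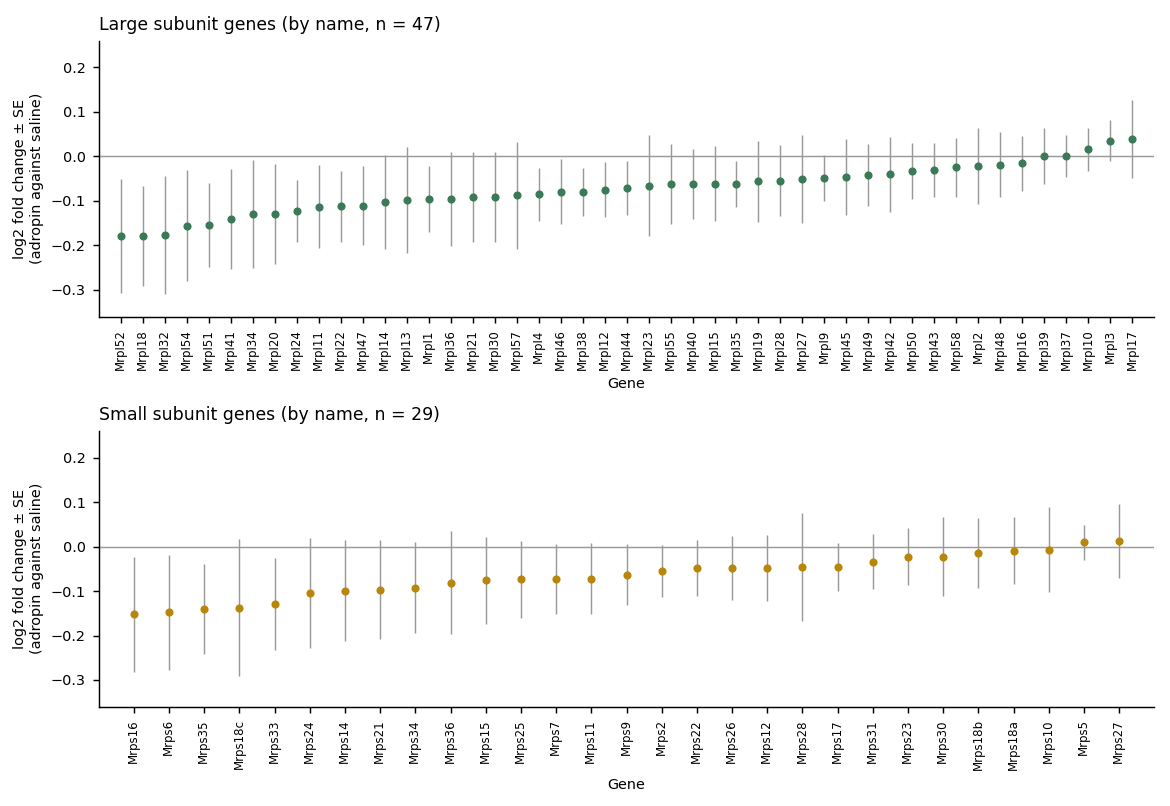
Log2 fold change of adropin-treated against saline-treated mice (vertical axis, edgeR) for each tested member (horizontal axis, in order of value), with large subunit genes above and small subunit genes below. Bars are the standard error from 8 mice per group, and values run from -0.18 for Mrpl52 to 0.04 for Mrpl17, with most points just below 0.

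In the large subunit the lowest fold changes belonged to Mrpl52, Mrpl18 and Mrpl32. Mrpl52, on chromosome 14 from 54426909 to 54429756 (plus strand), encodes a protein without a bacterial counterpart. Its level was from 21.2 to 37.2 CPM (median 24.8) in adropin-treated mice and from 24.7 to 44.2 CPM (median 27.9) in saline-treated mice. The ranges overlapped widely, with the highest values in adropin-treated mouse 4_3 and saline-treated mouse 5_4 (log2 fold change -0.18, SE 0.128, unadjusted p = 0.179, adjusted p = 0.874, edgeR). Mrpl18, a protein of the central protuberance, was at 17.8 to 27.7 CPM (median 20.4) with adropin and at 18.6 to 31.5 CPM (median 23.6) with saline, for a log2 fold change of -0.18 ± 0.112 (SE). Mrpl32, whose maturation by a protease of the inner membrane is a step in ribosome assembly, was at 8.89 to 14.8 CPM (median 10.9) against 9.90 to 18.4 CPM (median 12.0), for -0.18 ± 0.133. Adropin-treated mouse 4_3 was the highest of its group for all 3 genes.

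Mrpl24, the member with the smallest p, encodes a protein at the rim of the exit tunnel. It was at 16.3 to 20.4 CPM (median 17.8) in adropin-treated mice and at 15.7 to 22.3 CPM (median 19.5) in saline-treated mice, for a log2 fold change of -0.12 ± 0.069 (SE), and 26.3% of its exon bases overlap Rrnad1 on the opposite strand. The lowest single value of Mrpl24 thus belonged to a saline-treated mouse, 7_1. Without that mouse, whose removal widens the difference by construction, the unadjusted p was 0.0203 and the adjusted p 0.701 (edgeR), and 6.15% of all genes passed. Without adropin-treated mouse 4_3, the highest of its group, whose removal does the same, the unadjusted p was 0.0419 and the adjusted p 0.511, and 9.67% of all genes passed. At the other end, Mrpl17, also of the exit tunnel, was at 27.0 to 35.0 CPM (median 28.1) with adropin and 22.7 to 35.6 CPM (median 28.0) with saline (log2 fold change 0.04 ± 0.088 SE). Mrpl3, of the core near the peptidyl transferase center, had a value of 0.04 ± 0.045, and Mrpl10, of the stalk base, 0.02 ± 0.049.

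By place in the large subunit, no group of members stood out by its range. All 7 members of the central protuberance were below 0 (median log2 fold change -0.06, from -0.18 for Mrpl18 to -0.02 for Mrpl48). Of the 6 at the rim of the exit tunnel, where the new chain leaves, 5 were below 0 (median -0.09). Of 5 core proteins nearest the catalytic center, 4 were below 0 (median -0.02, from -0.09 for Mrpl4 to 0.04 for Mrpl3). In the stalk, where translation factors dock, Mrpl11 was at -0.11 ± 0.093, Mrpl12 at -0.07 ± 0.062 and Mrpl10 at 0.02 ± 0.049 (SE). None of these members passed an unadjusted p of 0.05.

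In the small subunit the fold changes spanned a similar range. Its lowest values were Mrps16 at -0.15 ± 0.13, Mrps6 at -0.15 ± 0.129 and Mrps35 at -0.14 ± 0.102 (log2 fold change ± SE), and its highest were Mrps27 at 0.01 ± 0.083, Mrps5 at 0.01 ± 0.039 and Mrps10 at -0.0068 ± 0.096. Mrps16, which has a bacterial counterpart, was at 12.4 to 23.1 CPM (median 15.9) in adropin-treated and at 14.6 to 25.8 CPM (median 17.8) in saline-treated mice, with mice 4_3 and 5_4 highest in their groups. Mrps27, a pentatricopeptide repeat protein, was at 20.3 to 28.9 CPM (median 23.9) against 20.6 to 30.6 CPM (median 23.3). All 5 proteins of the decoding site and head were below 0 (median -0.06), among them Mrps12 at -0.05 ± 0.074. Of 7 proteins of the message entry side, 5 were below 0 (median -0.05).

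The 3 paralogs of bacterial S18 differ in level and in how they vary. Mrps18b and Mrps18c sit in the small subunit, whereas Mrps18a sits in the large subunit in structures of the mammalian mitoribosome. Mrps18a (chromosome 17, 46110986 to 46128910, plus strand) was at 39.6 to 55.2 CPM (median 47.1) in adropin-treated and at 41.8 to 56.5 CPM (median 45.8) in saline-treated mice. Mrps18b (chromosome 17, 35910379 to 35916389, minus strand) was at 7.65 to 8.93 CPM (median 8.07) and at 6.57 to 9.79 CPM (median 8.14). Mrps18c (chromosome 5, 100798627 to 100804471, plus strand) was at 10.8 to 19.3 CPM (median 12.2) and at 11.8 to 23.2 CPM (median 13.3).

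The groups overlapped for each paralog. Log2 fold changes were -0.0094 ± 0.0757 for Mrps18a, -0.01 ± 0.0781 for Mrps18b and -0.14 ± 0.153 for Mrps18c (SE), with unadjusted p of 0.902, 0.859 and 0.382 (edgeR) and exact permutation p of 0.891, 0.944 and 0.430. Saline-treated mouse 5_4 had the highest Mrps18a and Mrps18c of its group and the lowest Mrps18b of all 16 mice. The SD over mice on the log2 scale was 0.136 for Mrps18b and 0.323 for Mrps18c. Mrps18b shares 30.5% of its exon bases with the antisense transcript Gm16279, and Mrps18c shares 23.2% with Gm43511 on the same strand.

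**Figure D2:**
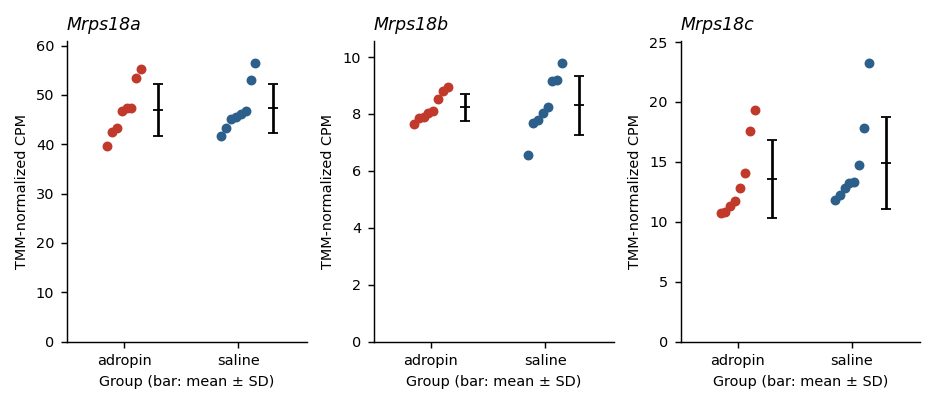
TMM-normalized CPM (vertical axis, from 0) of the S18 paralogs in each adropin-treated and saline-treated mouse, with bars for the mean ± SD of 8 mice. The groups overlap in each panel, with Mrps18a at 39.6 to 56.5 CPM, Mrps18b at 6.57 to 9.79 CPM and Mrps18c at 10.8 to 23.2 CPM.

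The difference between the large and small subunits did not exceed its spread. The median log2 fold change was -0.07 over the 47 large subunit members, with 42 below 0, and -0.06 over the 29 small subunit members, with 27 below 0. Without saline-treated mouse 5_4 the medians were -0.021 and -0.019, and without mice 5_4 and 8_3 both were 0.02, with 16 of 47 and 9 of 29 below 0. With the first label number as a replicate block, which compares only mice whose first number occurs in both groups, they were -0.14 and -0.13. Levels were then averaged within each mouse over the log2 values of the members, each taken from its own mean over all mice. The large subunit minus small subunit level ran from -0.05 to 0.05 (median -0.0021) in adropin-treated mice and from -0.03 to 0.04 (median 0.0033) in saline-treated mice. The group means were -0.0029 ± 0.030 and 0.0029 ± 0.0198 (SD, n = 8 each), and their difference of -0.0059 was smaller than either SD. As summed CPM, the large subunit was 1.94 ± 0.0393 times the small subunit with adropin and 1.95 ± 0.0179 times with saline.

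The values were close when names were replaced by the place in the structure. Mrps30 and Mrps18a belong to the large subunit there, and Mrps36 is now known as a component of the 2-oxoglutarate dehydrogenase complex. With these 2 genes moved and Mrps36 left out, the medians were -0.0658 for 49 large and -0.0677 for 26 small subunit members. By name they were -0.0715 and -0.063, so the order of the subunits turned. The group difference in large minus small level per mouse was -0.00026 by structure, in place of -0.0059. The log2 fold change of Mrps30 was -0.02 ± 0.089 and that of Mrps36 was -0.08 ± 0.115 (SE). The 45 members with a bacterial counterpart had a median of -0.07, with 41 below 0, and the 30 without one had a median of -0.05, with 27 below 0.

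**Figure D3:**
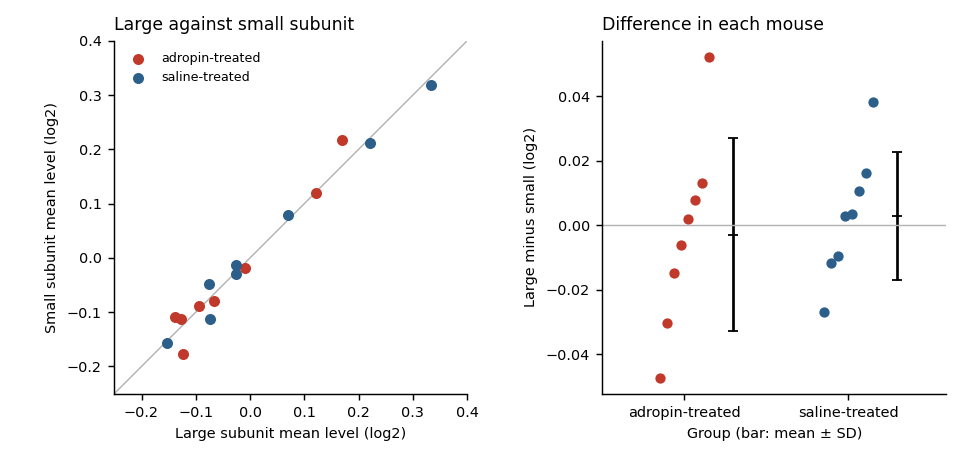
Left, mean small subunit level against mean large subunit level (log2, from each gene's mean over mice) with 1 point per mouse and the line of equality. Right, the large minus small difference in each mouse with the mean ± SD of 8 mice, which is -0.0029 ± 0.030 with adropin and 0.0029 ± 0.0198 with saline.

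The members were high or low together from mouse to mouse, with little of that variation between the groups. The first principal component of their log2 levels held 79.0% of the variance and the second 3.70%, whereas the difference between the groups held 5.22%. The mean level over all members was highest in saline-treated mice 5_4 (0.33) and 8_3 (0.22), followed by adropin-treated mice 4_3 (0.19) and 3_3 (0.12) and saline-treated mouse 2_3 (0.07). It was lowest in saline-treated mouse 5_3 (-0.15) and adropin-treated mouse 2_4 (-0.14). Both ends of the order thus held a saline-treated mouse, and the highest and lowest mice differed 1.4-fold. In mouse 5_4 68 of the 76 members lay above their own mean, and in mouse 5_3 only 5 did.

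By group, the mean level over all members ran from -0.14 to 0.19 (median -0.08) in adropin-treated mice and from -0.15 to 0.33 (median -0.02) in saline-treated mice. The means were -0.03 ± 0.123 and 0.03 ± 0.164 (SD, n = 8 each), a difference of -0.07 on the log2 scale that was smaller than either SD. Without mice 5_4 and 8_3 the difference was 0.01.

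**Figure D4:**
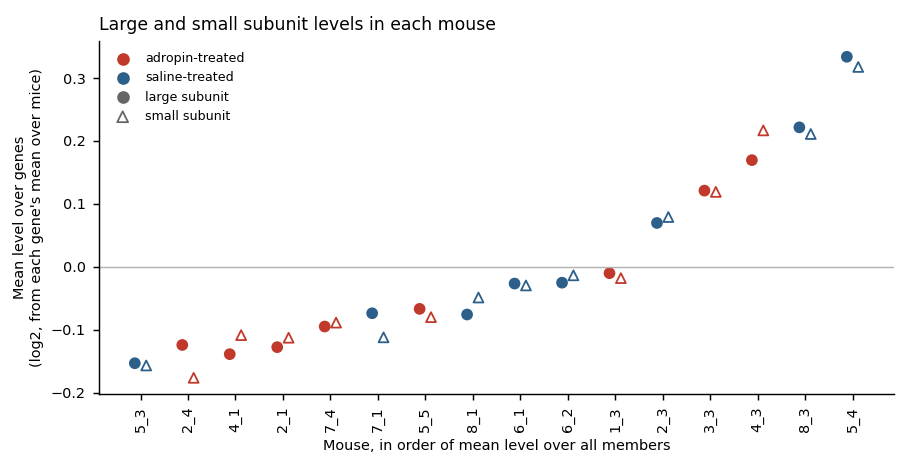
Mean level of the large subunit (circles) and small subunit (triangles) genes in each mouse (vertical axis, log2 from each gene's mean over mice), with mice in order of the mean over all members. The subunits follow a similar order (Spearman rho 0.944), both are highest in saline-treated mouse 5_4, and the groups are interleaved.

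Across the 16 mice the large and small subunit levels had a Pearson r of 0.986 and a Spearman rho of 0.944, and r was 0.975 without the 2 mice farthest from the median. The points share their libraries and size factors, so this is a description of these mice. Over the 2850 pairs of members the median r was 0.710, and 0.708 after each group's mean was subtracted. The pair with the highest r was Mrpl41 and Mrps6 (0.971) and that with the lowest was Mrpl50 and Mrps18b (-0.732), and 297 of the pairs were below 0. For 51 of 76 members r with the mean of the others was above 0.8.

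For 4 members this r was below 0, namely Mrps18b (-0.480), Mrps5 (-0.460), Mrpl10 (-0.292) and Mrpl37 (-0.103), the last named after its value was seen. Mrps5, a protein of the message entry side, also had a small spread. It ranged from 39.7 to 44.5 CPM with adropin and from 39.6 to 43.5 CPM with saline, and it was lowest in mice 4_3 and 5_4, which were the highest of their groups for 48 and 56 of the 76 members. Mrps18b was lowest in mouse 5_4 as well. The counting error per mouse came to 77.0% of the SD over mice for Mrps5 and 57% for Mrps18b, against a median of 24.6% over the 76 members.

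Other gene families were high and low in the same mice. The mean level over members had an r of 0.983 with the 81 cytosolic ribosomal protein genes tested and of 0.981 with the 37 nuclear genes of respiratory complex I, the first enzyme of the respiratory chain. The other tested genes with a pattern most like that of the members were Dynlrb1 (r = 0.991), a dynein light chain, and the cytosolic ribosomal protein genes Rpl39 (0.991) and Rpl36al (0.990), over 16 mice. With the share of counts in Gm42418 the r was -0.553, and with the library total -0.128. With the log2 level of Gm42418 as a covariate, 50 of 76 members were below 0 and the median was -0.0077. The part of Gm42418 in the result was not tested otherwise.

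Cytosolic ribosomal protein genes had 81 of 81 log2 fold changes below 0 (median -0.12) and complex I genes 35 of 37 (median -0.11). These medians were further from 0 than that of the mitoribosomal members, and no test of that difference was made. Of the cytosolic ribosomal protein genes 0 passed an unadjusted p of 0.05, and of the complex I genes only Ndufb2 did, where 2.13% of all genes were lower at that p (-0.20 ± 0.0852 SE, unadjusted p = 0.0308, adjusted p = 0.874, edgeR). Ndufb2 was at 13.2 to 17.3 CPM (median 15.9) with adropin and at 14.3 to 21.4 CPM (median 17.6) with saline, and without mice 5_4 and 8_3 its log2 fold change was -0.11 and its unadjusted p 0.18. With Gm42418 as a covariate they were -0.15 and 0.0975. Without mice 5_4 and 8_3, the difference in mean level was 0.02 for both families.

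Fold changes followed exon length across the transcriptome, and the members are short genes. Their median annotated exon length was 2394 bases, from 607 to 8631, against 4603 bases for 13492 other protein-coding genes tested. Across genes, log2 fold change and exon length had a Spearman rho of 0.320 over the members and 0.385 over the other genes, and genes of a library are not independent. Among genes under 1500 bases, 19 of 19 members were below 0 (median -0.10), as were 83.0% of 754 other genes (median -0.10). From 1500 to 3000 bases, 24 of 27 members were below 0 (median -0.07), against 69.6% of 2729 other genes (median -0.04). From 3000 to 6000 bases it was 18 of 19 members (median -0.06) against 49.7% of 5456 (median 0.0005), and from 6000 bases 8 of 11 (median -0.02) against 30.8% of 4553 (median 0.05). The medians were close under 1500 bases, and in each longer class that of the members was the lower. This difference and the part of length in the result were not tested.

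**Figure D5:**
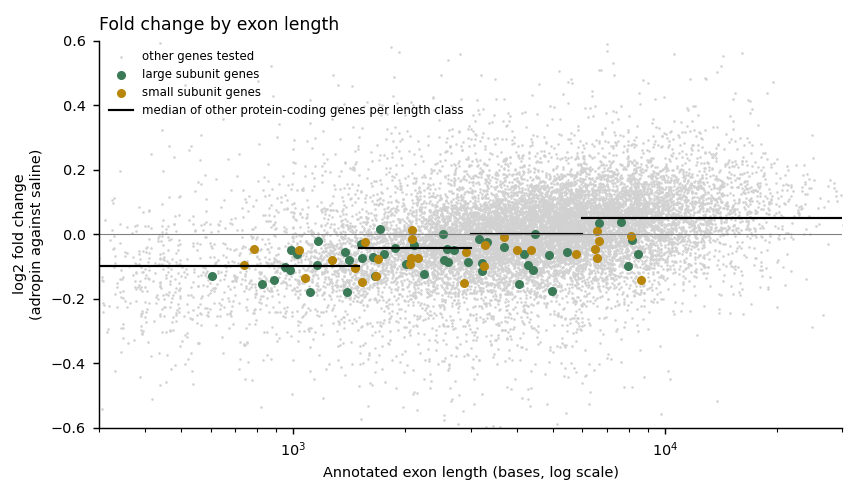
Log2 fold change (vertical axis, adropin-treated against saline-treated) against annotated exon length (horizontal axis, log scale) for large and small subunit members and the other genes tested, with the median of other protein-coding genes in each length class as a line. The line rises from -0.10 under 1500 bases to 0.05 from 6000 bases, and of 14949 genes 176 lie outside the range shown.

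Many members start beside another gene on the opposite strand. For 36 of the 76 a gene on the other strand starts within 1000 bases, and for 33 of them that gene is protein-coding. Mrpl46 and Mrps11 are neighbors on chromosome 7 (78775236 to 78783531, minus strand, and 78783119 to 78792989, plus strand), so a large and a small subunit gene overlap at their starts. Their log2 fold changes were -0.08 ± 0.0735 and -0.07 ± 0.0795 (SE), and Mrpl46 shares 12.2% of its exon bases with Mrps11.

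The closest arrangements among tested members were 6 because of a tie at 29 bases. Mrps21 starts 3 bases from the antisense gene C920021L13Rik (-0.10 and 0.05 in log2 fold change) and Mrps26 7 bases from 4930473A02Rik (-0.05 and 0.13). Mrpl54 starts 26 bases from Apba3, an adaptor of amyloid precursor protein (-0.16 and -0.13), Mrpl36 29 bases from the complex I gene Ndufs6 (-0.09 and -0.15), and Mrps18c and Mrps34 also 29 bases from Helq (-0.14 and -0.16) and Eme2 (-0.09 and 0.20). Of 33 tested neighbors 19 were below 0 (median -0.0085), a share near the 50.8% of all genes. Of these 33 neighbors 1 passed an unadjusted p of 0.05, as did 3.99% of all genes, namely Zfp189 beside Mrpl50 (-0.35 ± 0.151 SE, unadjusted p = 0.031, adjusted p = 0.874, edgeR), named after its value was seen, and Mrpl50 itself was at -0.03.

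Further genes of mitochondrial translation were counted by role. Of 5 mitoribosomal proteins named otherwise, 4 were below 0, from Chchd1 at -0.14 ± 0.105 to Ptcd3 at 0.05 ± 0.0632 (SE), and 0 passed an unadjusted p of 0.05. Among 17 tested translation factors 10 were below 0 (median -0.02), from Slirp, which binds mitochondrial messages with Lrpprc, at -0.26 ± 0.146 to Taco1, a translational activator, at 0.22 ± 0.175, and 0 passed. Of 11 regulators of mitochondrial transcription 6 were below 0 (median -0.04), from Gabpb1 at -0.13 ± 0.0687 to Tfb2m at 0.10 ± 0.0565, and 0 passed in edgeR. The two-sided exact permutation p of Tfb2m was 0.0493, and its edgeR p was 0.109 unadjusted and 0.874 adjusted.

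Of 26 assembly factors 18 were below 0 (median -0.04), or 12 without mice 5_4 and 8_3 (median 0.0074). In all mice 1 passed an unadjusted p of 0.05, lower with adropin, where 2.13% of all genes were. This was Malsu1, which holds the large subunit apart from the small subunit during assembly. Malsu1 was at 5.68 to 7.07 CPM (median 6.2) in adropin-treated mice and at 5.97 to 8.67 CPM (median 7.05) in saline-treated mice, with overlapping groups (log2 fold change -0.21 ± 0.0889 SE, unadjusted p = 0.0316, adjusted p = 0.874, edgeR, exact permutation p = 0.0328). Without mice 5_4 and 8_3 the log2 fold change was -0.13 and the unadjusted p 0.154, and with Gm42418 as a covariate they were -0.17 and 0.0867. The highest value of the list was that of Trub2, at 0.11 ± 0.0596.

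Of 20 genes for mitochondrial aminoacyl-tRNA synthesis 9 were below 0 (median 0.0094), and 1 was higher at an unadjusted p below 0.05, as were 1.86% of all genes. Lars2, the mitochondrial leucyl-tRNA synthetase, was at 535 to 2425 CPM (median 1358) with adropin and at 605 to 1508 CPM (median 805) with saline, and both the lowest and the highest mouse were adropin-treated (log2 fold change 0.66 ± 0.292 SE, unadjusted p = 0.0374, adjusted p = 0.874, edgeR, exact permutation p = 0.129). Over the 16 mice its log2 level had an r of 0.929 (Spearman rho 0.947, and 0.903 for r without the 2 mice farthest from the median of Gm42418) with Gm42418, and with that gene as a covariate the log2 fold change was 0.15 and the unadjusted p 0.278. Without mice 5_4 and 8_3 they were 0.62 and 0.0752. The lowest log2 fold change of this list was that of Hars2, at -0.07 ± 0.0753. By mean level Lars2 lay far above the rest of the list, at 1517 CPM with adropin and 963 CPM with saline. The next highest, Iars2, was at 47.0 and 45.2 CPM.

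The messages that the mitoribosome translates were all below 0, 13 of 13 (median log2 fold change -0.25), against 50.8% of all genes, and 1 was lower at an unadjusted p of 0.05, against 2.13%. This was mt-Nd4l, at 47.0 to 77.0 CPM (median 63.3) with adropin and at 57.4 to 108 CPM (median 68.9) with saline (-0.29 ± 0.128 SE, unadjusted p = 0.034, adjusted p = 0.874, edgeR, exact permutation p = 0.0625). Without mice 5_4 and 8_3, 7 of 13 were below 0 and the median was -0.0013, and mt-Nd4l was at -0.11 with an unadjusted p of 0.27. With Gm42418 as a covariate mt-Nd4l was at -0.24 with an unadjusted p of 0.0887. The ribosomal RNAs of the mitoribosome were not tested across genes, since ribosomal RNA was left out and libraries were poly-A selected. The small subunit RNA mt-Rnr1 was at 3310 to 5772 CPM (median 4679) with adropin and 3760 to 8180 CPM (median 4261) with saline, and the large subunit RNA mt-Rnr2 at 4455 to 8190 CPM (median 5715) and 4772 to 10658 CPM (median 5725), with overlapping groups (two-sided exact permutation p = 0.427 and 0.342).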

How the data were processed

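RNA from the brains of 16 mice was sequenced after poly-A selection on a NovaSeq-6000. Per the labels and the study's methods, the authors mapped reads by STAR (Ensembl release 76, GRCm38) and counted those with a unique position and a single gene by featureCounts. The counts were deposited without normalization. The deposited CPM equal each count over its library total, with no TMM factor. Strand use in counting is not stated.

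From the counts, TMM factors were computed in edgeR 4.0.16 (R 4.3.3). Of 40757 entries 276 repeats were dropped, genes needed over 1 CPM in 7 or more mice, and 355 ribosomal RNA genes were left out. Groups were compared over the 14949 genes left by the quasi-likelihood test of edgeR without covariates, with Benjamini-Hochberg adjustment over all of them. Levels per mouse are log2 TMM-normalized CPM with a prior count of 2. A single gene was also compared by two-sided exact permutation. Exon lengths, positions and overlaps came from a GENCODE release on GRCm38 other than the annotation used in counting. The exons counted may thus differ from those measured. Promoter windows came from RefSeq. Totals were 35026503 to 70314050, and the Poisson counting error of a member came to 14.2% to 77.0% of its SD over mice (log2).

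Subunits were assigned by name. Members named were those with the 3 highest and lowest fold changes and levels per length in each subunit, those of role lists, the S18 paralogs, Mrps30, Mrps36, untested members and those with the 5 closest divergent neighbors. From other lists, genes past an unadjusted p of 0.05 and both ends were named, and the 3 genes most like the members. Members and lists were chosen with earlier results of these data known. Alternatives were limma-voom and limma-trend with a pseudocount of 1 (limma 3.58.1), DESeq2 1.42.0, other size factors and filters, 1 surrogate variable (sva 3.50.0), either label number as a block, and leaving out mice.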

Additional observations from a re-analysis of the deposited data

Results flagged for a closer look

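A mouse was set apart where its gap to the nearest of its group exceeded Dixon's critical value as a share of the range of the 8 mice. This was examined for the CPM of the 76 tested members and for the large subunit, small subunit and difference levels, in 158 groups, and chance gives about 1 in 20 groups, or 7.9. It was met 10 times, and not by the subunit levels or their difference. Adropin-treated mouse 4_3 was high for Mrpl22 (17.3 CPM, next 14.8), Mrpl24 (20.4, next 18.2), Mrpl4 (66.5, next 59.0), Mrps23 (33.6, next 29.1) and Mrps28 (13.1, next 9.61). Saline-treated mouse 5_4 was high for Mrpl44 (21.8 CPM, next 18.3), Mrpl55 (40.1, next 32.7) and Mrpl57 (39.2, next 29.6). Adropin-treated mouse 1_3 was high for Mrpl3 (50.6 CPM, next 44.9), and adropin-treated mouse 7_4 was low for Mrpl35 (21.1 CPM, next 23.2).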

How the results depend on the processing

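No member passed an adjusted p of 0.05, or a fold change of 1.5 with an unadjusted p of 0.05, under any of the 28 other fits, and the tools, size factors, filters, surrogate variable and covariate gave 0 members at an unadjusted p of 0.05. Leaving out 1 mouse gave 0 to 3, namely Mrpl52, Mrpl24 and Mrpl18 without adropin-treated mouse 4_3 (where 9.67% of all genes passed, in place of 3.99%) and Mrpl24 without saline-treated mouse 7_1 (6.15%). The count below 0 was 54 to 72 of 76 without 1 mouse, lowest without saline-treated mouse 5_4, and 69 to 74 under the other tools, size factors and filters. It was 25 without saline-treated mice 5_4 and 8_3 and 50 with Gm42418 as a covariate, both chosen after seeing the data. The median log2 fold change without 1 mouse was -0.09 to -0.02 in the large and in the small subunit, -0.02 without mouse 5_4 and, over all members, -0.04 without mouse 8_3 in place of -0.07. It was 0.02 in both subunits without both mice. The mean log2 fold change of large subunit members minus that of small subunit members was -0.0147 to 9.87e-06 without 1 mouse. In all mice the means were -0.074 for the large and -0.066 for the small subunit.

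The log2 fold change of Mrps18a changed sign to 0.016 with 1 surrogate variable, 0.068 without mice 5_4 and 8_3 and 0.036 with Gm42418, that of Mrps18b to 0.037 and 0.049 with the first and second label number as a replicate block, and that of Mrps18c to 0.055 without both mice. Without 1 mouse Mrps18a ran from -0.039 to 0.031, Mrps18b from -0.056 to 0.020 and Mrps18c from -0.22 to -0.02. None passed an unadjusted p of 0.05 in any of these fits.

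The meaning of the label numbers is not given, and as a replicate block neither moved a member past an unadjusted p of 0.05. The median over all members was -0.14 with the first and -0.09 with the second. The standard errors of members, 0.039 to 0.153, limit what 8 mice per group can show to changes larger than most of those seen. Annotated exon length, overlapping genes and unstated strand use limit levels per length.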
